A study of Mus musculus with 4 samples.

Results

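The 10 genes described here encode neural RNA-binding proteins: Elavl1, Elavl2, Elavl3 and Elavl4, Msi1 and Msi2, Rbfox1, Rbfox2 and Rbfox3, and Qk. Every accessible region that the deposited count table assigns to one of them was taken, which gave 26 of the 29121 regions, and each region was examined by itself. Chromatin accessibility was measured by ATAC-seq, in which the Tn5 transposase inserts adapters into open DNA, so that a region's tag count follows how open it is. The cells were hippocampal neurospheres, floating cultures of neural progenitor cells, from C57BL/6 mice at P0, kept for 7 days with FGF-2 and EGF at 20 ng/ml each. The 2 Fgf13cko libraries had the genotype hGFAPCre+, Fgf13 flox/y, and the 2 control libraries had hGFAPCre+, Fgf13+/y, so both groups carry the Cre transgene under a human GFAP promoter. That promoter is active in radial glia and astrocytes, and cells without it keep an intact floxed gene. The controls are described as littermates. Whether replicate cultures came from different mice is not in the labels, so p-values here rest on the spread between these 4 samples alone, some of which may be technical.

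RNA-binding proteins of this kind set the fate of neuronal and glial transcripts after transcription. Elavl (Hu) proteins bind AU-rich stretches of mRNAs and stabilise them or alter their splicing and translation. Elavl1 (HuR) is present in nearly all cells, whereas Elavl2, Elavl3 and Elavl4 (HuB, HuC and HuD) mark neurons. Musashi proteins, Msi1 and Msi2, control translation in neural stem and progenitor cells, where Msi1 represses the Notch inhibitor Numb. Rbfox proteins are splicing regulators of neuronal exons, and Rbfox3 is NeuN, the antigen used to stain mature neurons. Qk (quaking) is an RNA-binding protein of neural progenitors and glia that is needed for myelination.

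Start-site windows of Elavl4, Elavl2, Msi2 and Qk are shown, which a measured region covers in whole or, at Qk, in 40 of its 300 bases. The change at Elavl4 lies at a start site, that at Qk just before one, and those of Msi2 away from it. The windows come from RefSeq on GRCm38.p6, run 5′ to 3′ on the strand of the gene, and hold 250 bases before a start site and 50 after it. All lie on the minus strand. Capitals mark matches, on either strand, to the GC box GGGCGG, the CCAAT box CCAAT, the AP-1 site TGANTCA, the TATA box TATAAA, the Sox site ACAAAG or the E-box CAGCTG. The full site of nuclear factor I was searched as well. In the 5 windows no match overlaps another. Windows of Msi1 and Rbfox2 were not used here.
Elavl4, downstream start, chr4:110286785-110287084: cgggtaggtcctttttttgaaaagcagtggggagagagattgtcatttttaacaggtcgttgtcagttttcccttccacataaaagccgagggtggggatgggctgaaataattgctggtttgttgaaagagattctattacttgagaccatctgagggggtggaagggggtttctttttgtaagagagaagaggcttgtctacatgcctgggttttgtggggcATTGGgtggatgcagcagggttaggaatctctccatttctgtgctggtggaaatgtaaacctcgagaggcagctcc
Elavl4, upstream start, chr4:110351862-110352161: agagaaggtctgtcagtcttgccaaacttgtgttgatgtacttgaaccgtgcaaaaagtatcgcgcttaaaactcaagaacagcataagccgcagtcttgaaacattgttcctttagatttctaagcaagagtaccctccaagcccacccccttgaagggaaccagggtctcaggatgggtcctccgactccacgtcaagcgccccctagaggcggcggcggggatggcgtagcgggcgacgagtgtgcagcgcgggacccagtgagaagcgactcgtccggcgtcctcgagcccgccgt
Elavl2, chr4:91376447-91376746: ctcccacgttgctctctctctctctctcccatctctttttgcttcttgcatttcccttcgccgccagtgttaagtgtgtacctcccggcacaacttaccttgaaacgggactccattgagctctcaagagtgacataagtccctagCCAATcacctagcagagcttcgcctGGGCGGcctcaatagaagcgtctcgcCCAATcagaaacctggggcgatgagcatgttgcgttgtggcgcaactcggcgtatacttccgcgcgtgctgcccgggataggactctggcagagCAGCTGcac
Msi2, chr11:88718228-88718527: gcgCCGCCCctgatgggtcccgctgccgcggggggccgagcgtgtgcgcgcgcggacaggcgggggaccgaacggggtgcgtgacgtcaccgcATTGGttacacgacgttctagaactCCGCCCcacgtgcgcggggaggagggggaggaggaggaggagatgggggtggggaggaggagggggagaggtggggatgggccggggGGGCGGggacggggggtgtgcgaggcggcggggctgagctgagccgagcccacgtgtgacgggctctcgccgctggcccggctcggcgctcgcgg
Qk, chr17:10319312-10319611: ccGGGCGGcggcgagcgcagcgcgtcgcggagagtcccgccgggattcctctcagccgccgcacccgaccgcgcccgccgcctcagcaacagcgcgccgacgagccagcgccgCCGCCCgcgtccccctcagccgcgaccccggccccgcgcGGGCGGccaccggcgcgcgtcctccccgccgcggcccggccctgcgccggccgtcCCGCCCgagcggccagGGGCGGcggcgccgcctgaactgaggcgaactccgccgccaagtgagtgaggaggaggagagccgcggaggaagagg

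The windows of Elavl4 differ in composition. The downstream one, which lies inside the gene, has a GC content of 47.3% and 4 CpG dinucleotides, and the upstream one has 57.0% and 23. Across all 32851 RefSeq windows of mouse the medians are 52.7% and 7. The Msi2 window has 76.3% GC and 39 CpG dinucleotides, and the Qk window 81.7% and 57, so both are CpG-rich starts. The Elavl2 window lies between, at 56.0% and 18. The GC box occurs 3 times in the Msi2 window, 5 times in the Qk window and once in the Elavl2 window, and 35.7% of all windows hold it. A CCAAT box occurs once in the Msi2 window, once in the downstream Elavl4 window and 2 times in the Elavl2 window, against 37.4% of all windows. The E-box in the Elavl2 window is found in 16.3% of all windows. None of the 5 windows shown holds the AP-1 site, the TATA box, the Sox site or the full nuclear factor I site, which occur in 7.81%, 13.6%, 18.7% and 0.0365% of all windows. A match is a description of the letters and not of binding.

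The nuclear regions held 2.55 and 2.63 M tags in the Fgf13cko libraries and 2.78 and 3.25 M in the controls. Mitochondrial tags made up 9.54% and 9.19% of all tags in the Fgf13cko libraries and 23.4% and 27.0% in the controls. With the mitochondrial regions left out of the fit, the same 2 of the 26 regions rose and the same 2 fell; otherwise the mitochondrial share and the groups cannot be told apart. The 4 regions assigned to Fgf13 itself had log2 fold changes between -0.53 and 0.83, and 0 passed the test (lowest adjusted p = 0.0848), which does not check the genotype since the floxed exon is not named. Scaled by library size alone, the log2 fold changes of all regions had a median of 0.97. Of the 26 regions, 12 then passed as higher and 1 as lower. That library size counts the mitochondrial tags. With them, the regions held 4.15 and 3.84 M tags in the Fgf13cko libraries and 8.60 and 10.3 M in the controls. Promoter sums, which hold no mitochondrial region, had a median of -0.016 over all genes under the same scaling. The changes given are relative to the bulk of all regions, as the TMM scaling sets it. Counts below are tag counts scaled to a common library size (normalised counts). Fold changes are Fgf13cko over control, tested with edgeR's quasi-likelihood test and Benjamini-Hochberg adjustment over all 28801 tested regions, at a threshold of 0.05. Each of the 26 regions had a deposited peak in all 4 libraries, so a region open in 1 group alone is outside these counts. In such bulk samples, a smaller share of cells with an open region and a less open region in each cell cannot be told apart.

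In the Fgf13cko neurospheres, a start-site region of Elavl4 and one of Rbfox2 were more accessible, and an intronic region of Msi1 and one of Msi2 were less accessible. Of the 26 regions, 2 rose and 2 fell. Across all tested regions 6.2% rose and 1.64% fell. All 26 passed the filter on low counts. In 9 of them both Fgf13cko libraries lay above both controls and in 7 both lay below, against 28.5% and 25.2% of all tested regions. In the other 10 the groups overlapped. The median log2 fold change of the 26 regions was -0.07, against -0.00062 over all regions. These counts depend on single libraries: 0 rose and 1 fell without control replicate 1, 0 and 0 without control replicate 2, 4 and 2 without Fgf13cko replicate 1, and 5 and 6 without Fgf13cko replicate 2. Calls over the whole table moved likewise: 1786 regions rose and 472 fell with all libraries, 416 and 69 without control replicate 1, 192 and 32 without control replicate 2, 4125 and 2875 without Fgf13cko replicate 1, and 5100 and 4986 without Fgf13cko replicate 2. At an unadjusted p under 0.05, 7 of the 26 regions differed, against 22.9% of all regions. They were 4 promoter and 3 distal regions, against 14.6% of all promoter and 28.5% of all distal regions.

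**Figure D1:**
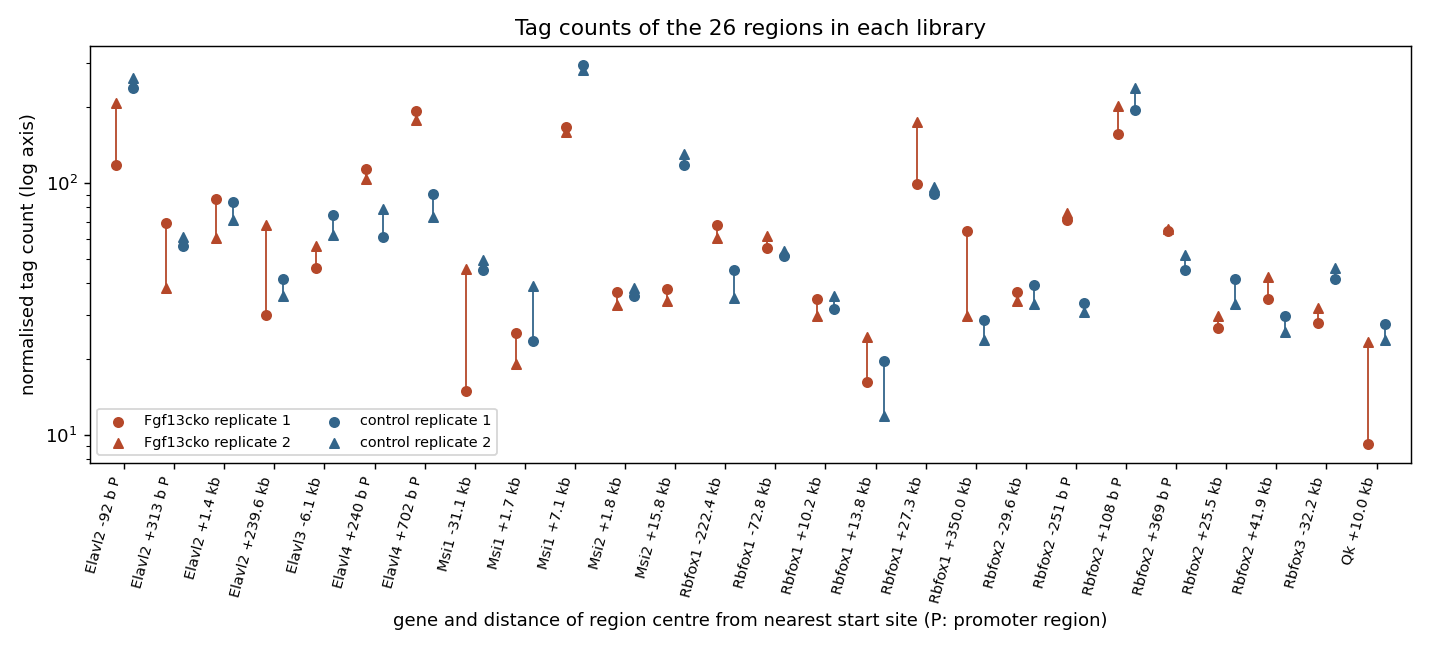
Normalised tag counts (log axis) of the 26 regions in each library, ordered by gene and by distance of the region's centre from the nearest start site. Orange symbols are Fgf13cko libraries and blue symbols controls, circles are replicate 1, triangles are replicate 2, a vertical line joins the replicates of a group, and P marks promoter regions. The groups are separate at Elavl4 +702 b, where Fgf13cko has 194 and 178 and control 90.7 and 73.2, and at Msi2 +15.8 kb, where Fgf13cko has 38.1 and 33.9 and control 118 and 131.

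Both calls towards more open chromatin were among the 7 promoter regions, those that overlap 1 kb on either side of a start site, where 2 rose and 0 fell. Across all promoter regions 1.42% rose and 0.76% fell. Both calls towards less open chromatin were among the 19 distal regions, where 0 rose and 2 fell. Across all distal regions 9.48% rose and 2.22% fell. The median log2 fold change was 0.42 for the promoter regions and -0.08 for the distal ones, against -0.06 and 0.09 over all regions of each kind. Whether promoter and distal regions of these genes differ was not tested.

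**Figure D2:**
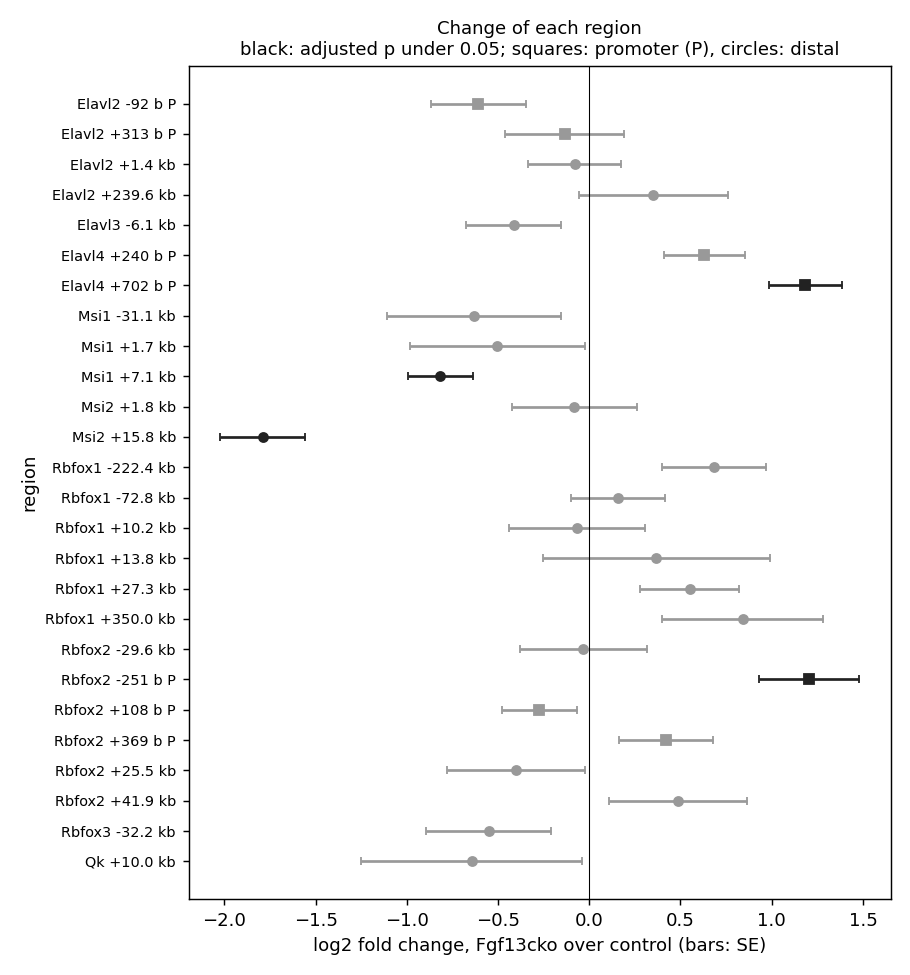
Log2 fold change of each of the 26 regions, Fgf13cko over control, with its standard error, from the edgeR fit over all regions. Squares are promoter regions, circles distal regions and black symbols passed an adjusted p of 0.05, which are Elavl4 +702 b at 1.19, Rbfox2 -251 b at 1.20, Msi1 +7.1 kb at -0.82 and Msi2 +15.8 kb at -1.79.

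Elavl4, which encodes the neuronal protein HuD, rose at one of its start regions and in its promoter sum. The downstream start region (chr4:110285177-110287087, intron 1 of 7) had normalised counts of 194 and 178 in the Fgf13cko libraries and 90.7 and 73.2 in the controls. Both Fgf13cko libraries lay well above both controls, a log2 fold change of 1.19 (SE 0.20, adjusted p = 0.0111). The upstream start region (chr4:110351155-110352187) had 114 and 104 in Fgf13cko and 61.1 and 79.1 in the controls. It lay in the same direction without passing the test, with a log2 fold change of 0.63 (adjusted p = 0.132). Summed over both regions, the Elavl4 promoter count was 294 and 308 in Fgf13cko against 151 and 148 in the controls. The sum passed with a log2 fold change of 1.01 (SE 0.15, adjusted p = 0.00600), and was the only promoter sum called among Elavl4, Elavl2 and Rbfox2, the 3 members that have one. Across all genes, 2.14% of promoter sums rose and 0.601% fell. The call of the downstream region ended without control replicate 1 (adjusted p = 0.0624) and without control replicate 2 (0.198), as did that of the sum (0.412 and 0.391). Neither Elavl4 region carries the table's own promoter annotation, so the sum rests on the 1 kb rule.

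Some neuronal marker promoters rose as well. Of 12 neuron markers, 8 had a tested promoter sum, 3 rose and 0 fell, with a median log2 fold change of 0.53, against -0.0142 for all promoters. Their summed normalised count was 891 and 986 in Fgf13cko and 575 and 598 in the controls. Those that rose were Camk2a, a kinase subunit of excitatory synapses (1.40, adjusted p = 0.00600), Syt1, the calcium sensor of vesicle release (0.94, adjusted p = 0.0151), and Map2, a dendritic microtubule protein (0.78, adjusted p = 0.0438). Among the others, Snap25 had 0.57 (adjusted p = 0.112) and Neurod1, a transcription factor of young neurons, -0.66 (adjusted p = 0.576). Of the 8 log2 fold changes, 5 were positive and 3 negative, those of Neurod1, Gad1 (-0.31) and Tubb3 (-0.04). Dcx, Syp, Stmn2 and Slc17a7 had no promoter sum. Of 7 neuron markers with a distal sum, 4 had a positive log2 fold change and 0 were called in edgeR. At an unadjusted p under 0.05, 1 was lower, Neurod1 (-0.81). Of the 10 stem cell and radial glia markers, 2 rose and 0 fell: Fabp7, a radial glial lipid carrier, at 0.80 (adjusted p = 0.0209) and Nes, which encodes nestin, at 0.79 (adjusted p = 0.0486). Over all genes, 2.14% of promoter sums rose and 0.601% fell. All 5 of these marker calls ended with either control library left out, since edgeR then called 0 promoter sums of any gene. The 10 had a median of 0.03 and summed to 2368 and 2217 in Fgf13cko against 1945 and 2207 in the controls. Of the 9 stem cell and radial glia markers with a distal sum, 1 rose, that of Fabp7 (1.16, adjusted p = 0.0236), and 0 fell. The part of neuron-like cells in the Elavl4 result was not tested.

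The other Elavl genes showed no call. At the Elavl2 start region (chr4:91376244-91376932) the normalised counts were 118 and 208 in Fgf13cko and 237 and 260 in the controls. Both Fgf13cko libraries were below both controls but far apart from each other, and the log2 fold change of -0.61 did not pass (adjusted p = 0.205). Without Fgf13cko replicate 2, the higher of the pair, the log2 fold change was -1.09. That value rests on 1 Fgf13cko library, so the spread within the group does not enter it. The region 313 bases past a start of Elavl2 had 69.2 and 38.2 in Fgf13cko and 56.2 and 61.3 in the controls (-0.14, adjusted p = 0.854). The groups overlapped there, as they did at the Elavl2 regions 1.40 kb (-0.08, adjusted p = 0.892) and 240 kb past a start (0.35, adjusted p = 0.669). The Elavl2 promoter sum had a log2 fold change of -0.44 (adjusted p = 0.219). The Elavl2 distal sum, over distal regions within 100 kb, holds the region at 1.40 kb alone and had -0.17 (adjusted p = 0.752).

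Elavl3 (HuC), a marker of differentiating neurons, had 1 region, which lies 6.11 kb before its start and within exon 4 of 9 of the neighbouring gene Zfp653. Its counts were 46.1 and 56.2 in Fgf13cko and 74.9 and 62.1 in the controls, with a log2 fold change of -0.42 (adjusted p = 0.400). The Elavl3 start itself had peaks in 3 of 4 libraries and is outside the count table. Elavl1 has 0 regions under its own name. The region at its start (chr8:4325051-4325646) is assigned in the table to Ccl25, a chemokine gene that begins beside it. This region had 113 and 121 in Fgf13cko and 179 and 128 in the controls, lower in both Fgf13cko libraries without passing the test (-0.39, adjusted p = 0.345).

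The Musashi genes were less accessible at some of their own regions. Of 5 regions, all of them distal, 2 fell and 0 rose, with a median log2 fold change of -0.63. Across all distal regions 9.48% rose and 2.22% fell. All 5 values were negative, as were those of 7648 of the 17084 tested distal regions. Scaled by library size alone, 4 of the 5 were positive. With a loess offset 1 was, that of Msi2 near its start. In Msi1, the region 7.08 kb past the start (chr5:115436284-115437244), which overlaps a CpG island in intron 6 of 14, had 167 and 159 in Fgf13cko and 295 and 281 in the controls. The replicates of each group lay close together and the groups far apart, with a log2 fold change of -0.82 (SE 0.18, adjusted p = 0.0275). The authors' own fold enrichment of the peak there overlapped between groups, at 6.38 and 5.49 in Fgf13cko and 6.15 and 6.15 in the controls. The region 31.1 kb before the start had 15.0 and 45.6 in Fgf13cko and 45.3 and 49.3 in the controls (-0.63, adjusted p = 0.486), so that 1 Fgf13cko library was low and the other level with the controls. The region 1.74 kb past the start had 25.4 and 19.1 in Fgf13cko and 23.7 and 39.1 in the controls (-0.50, adjusted p = 0.591), with overlapping groups. Summed, the distal regions of Msi1 had 216 and 200 in Fgf13cko against 370 and 390 in the controls, and fell with a log2 fold change of -0.87 (SE 0.17, adjusted p = 0.0153). The intronic call ended without control replicate 1 or 2, and that of the sum likewise. The intronic region then had log2 fold changes of -0.78 and -0.85. Scaled by library size alone, mitochondrial tags included, the log2 fold change of the intronic region was 0.15.

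Msi2 had the largest change among the 26 regions. Its region 15.8 kb past the start (chr11:88702032-88702823, intron 5 of 7) had 38.1 and 33.9 in Fgf13cko and 118 and 131 in the controls. Both Fgf13cko values were far below both controls, a log2 fold change of -1.79 (SE 0.23, adjusted p = 0.00480). The other region, 1.84 kb past the start, had 36.9 and 32.9 in Fgf13cko and 35.5 and 38.3 in the controls (-0.08, adjusted p = 0.919), so the groups overlapped. The distal sum of Msi2 had 78.0 and 59.6 in Fgf13cko against 157 and 179 in the controls and fell (-1.29, SE 0.23, adjusted p = 0.00981). Both calls of Msi2 ended without control replicate 2 and held without control replicate 1. The region 15.8 kb past the start then had log2 fold changes of -1.71 and -1.86. Across all genes, 7.17% of distal sums rose and 3.67% fell, and among the 8 members with a distal sum 0 rose and 2 fell, those of Msi1 and Msi2. The Msi2 sum holds only the 2 regions named for Msi2. It leaves out regions within the gene under other names, some of which rose, as described next.

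The table names each region for the nearest start site, and most open regions inside Msi2 carry another gene's name. The rule for them, any region within a member's gene or 1 kb of it, was added after the table was seen. It gave 20 further regions, 15 of them in Msi2, 2 in Rbfox1 and 1 each in Elavl1, Msi1 and Qk. Of the 20, 4 rose and 1 fell, against the 6.2% and 1.64% of all regions. All 4 that rose are distal regions in Msi2, and across all distal regions 9.48% rose and 2.22% fell. The 1 that fell is a promoter region, and across all promoter regions 1.42% rose and 0.76% fell. In its intron 6 of 13, the region 193 kb into the gene (chr11:88524289-88525528) had 401 and 261 in Fgf13cko and 96.6 and 106 in the controls, a log2 fold change of 1.70 (adjusted p = 0.00633). The lower Fgf13cko value there was still well above both controls.

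In the same intron the region 135 kb in (chr11:88582681-88583708) had 221 and 196 in Fgf13cko and 86.7 and 83.4 in the controls (1.29, adjusted p = 0.00683). The region 236 kb in (chr11:88481300-88483051) had 258 and 223 in Fgf13cko and 112 and 108 in the controls (1.13, adjusted p = 0.0103). In intron 7, the region 246 kb in (chr11:88471782-88472597) had 272 and 246 in Fgf13cko and 142 and 167 in the controls (0.74, adjusted p = 0.0457). Of the 4, it was the one closest to the threshold, and did not pass in the DESeq2 Wald test (adjusted p = 0.0792), with the mitochondrial regions left out (0.0574) or with the replicate number as a block (0.0554). The Msi2 gene thus held a fallen region near its start and 4 risen ones deep in its introns. The region over the Msi2 start (chr11:88718204-88718972), whose window is printed above, is named for the long non-coding RNA gene C030037D09Rik. It had 108 and 74.3 in Fgf13cko and 98.6 and 151 in the controls, with overlapping groups (-0.46, adjusted p = 0.369). Of the 15 regions in Msi2 under other names, 10 had a positive log2 fold change, with a median of 0.46. Without control replicate 1 or 2, 0 of the 20 regions passed as higher, without Fgf13cko replicate 1 it was 9 and without replicate 2 it was 7.

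**Figure D3:**
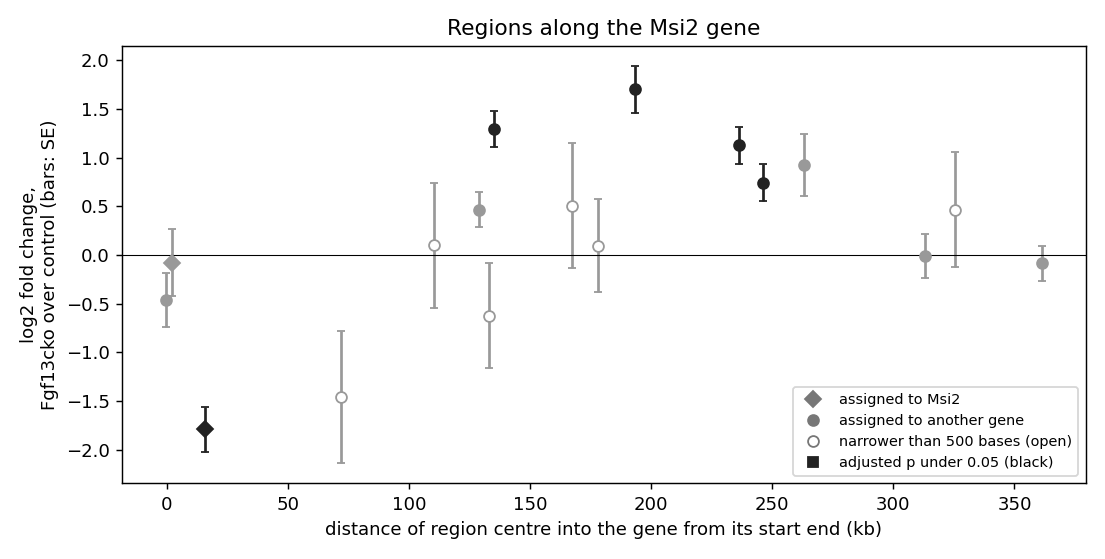
Log2 fold change, Fgf13cko over control, with its standard error for the 17 regions within Msi2, by distance of their centre into the gene in kb from the end where it starts. Diamonds are regions named for Msi2, circles regions named for another gene, open circles are narrower than 500 bases and black symbols passed an adjusted p of 0.05. The fallen region lies 15.9 kb into the gene and the 4 risen ones between 135 and 246 kb.

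The replicates of Fgf13cko stood apart at narrow regions. In the 6 Msi2 regions narrower than 500 bases, the median log2 ratio of Fgf13cko replicate 1 to replicate 2 was -2.13, and that of control replicate 1 to 2 was 0.37. Over all 2744 such nuclear regions the same medians were -1.66 and 0.29, and over the 26271 wider ones 0.06 and -0.0031. All 26 regions named for the 10 genes are wider, with medians of -0.06 and 0.0031. The width of 500 bases was chosen after the data were seen, and its part in the results was not tested. The Msi1 region assigned to Cox6a1 had 9.23 and 25.5 in Fgf13cko and 51.2 and 55.3 in the controls (-1.60, adjusted p = 0.0762).

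Among the Rbfox genes, 1 of 13 regions passed the test, as higher, at a start of Rbfox2. Across all tested regions 6.2% rose and 1.64% fell, so the number of calls in this family is near the share of all regions. Rbfox2 is the most widely expressed of the family. The region 251 bases before one of its starts (chr15:77245435-77246284) had 71.5 and 76.4 in Fgf13cko and 33.5 and 30.6 in the controls. Both Fgf13cko values lay well above both controls, with a log2 fold change of 1.20 (SE 0.27, adjusted p = 0.0312). The other start regions of Rbfox2 did not pass. The most accessible one, 108 bases past a start in exon 1 of 14, had 157 and 202 in Fgf13cko and 195 and 238 in the controls (-0.27, adjusted p = 0.486). The one 369 bases past a start had 64.6 and 65.8 in Fgf13cko and 45.3 and 51.9 in the controls (0.42, adjusted p = 0.382). Summed over the 3 start regions, the Rbfox2 promoter count had a log2 fold change of 0.16 (adjusted p = 0.640). With promoters as the table annotates them, only the region 251 bases before a start counts, and the log2 fold change was 1.30 (adjusted p = 0.0557). The call of the region 251 bases before a start ended in a DESeq2 Wald test (adjusted p = 0.123). It also ended without control replicate 1 or 2, where the log2 fold changes were 1.27 and 1.14.

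The distal regions of Rbfox2 held between 26.5 and 42.4 normalised counts in Fgf13cko and between 25.5 and 41.4 in the controls. Their log2 fold changes were -0.40 at 25.5 kb past a start (adjusted p = 0.588), 0.49 at 41.9 kb past it (adjusted p = 0.502) and -0.03 at 29.6 kb before one (adjusted p = 0.968). Their sum had -0.09 (adjusted p = 0.819).

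Rbfox1, a splicing factor of mature neurons and the longest of the 10 genes at 1528 kb, had 6 distal regions and no promoter region. Of these, 5 had positive log2 fold changes; 0 of the 6 passed in edgeR, 0 of the 3 that DESeq2 gave an adjusted p passed there, and 1, the region 222 kb before a start, had an unadjusted p under 0.05. The region 222 kb before a start had 68.0 and 60.5 in Fgf13cko and 45.3 and 34.9 in the controls (0.68, adjusted p = 0.197). The region 27.3 kb past a start had 99.2 and 174 in Fgf13cko and 90.7 and 96.1 in the controls (0.55, adjusted p = 0.272). In both, the Fgf13cko libraries lay above the controls. The region 350.0 kb past a start had 64.6 and 29.7 in Fgf13cko and 28.6 and 23.8 in the controls, a log2 fold change of 0.84 (adjusted p = 0.305). There 1 Fgf13cko library was far above the controls and the other just above them. The remaining regions, at 72.8 kb before and 10.2 and 13.8 kb past a start, had 0.16, -0.07 and 0.37 (adjusted p = 0.775, 0.939 and 0.783). The Rbfox1 distal sum had 0.22 (adjusted p = 0.476).

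Rbfox3 (NeuN) had 1 region, 32.2 kb before a start. It had 27.7 and 31.8 in Fgf13cko and 41.4 and 45.9 in the controls (-0.55, adjusted p = 0.389). The Fgf13cko values were lower in both libraries, in the direction opposite to Elavl4, without passing the test. The Rbfox3 distal sum, which holds this region alone, had -0.66 in the fit of sums (adjusted p = 0.232). Its start window held a peak in 0 of 4 libraries, and those of Rbfox1 in 0 and 1.

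Qk had 1 region of its own, 10.0 kb past a start, with 9.23 and 23.3 in Fgf13cko and 27.6 and 23.8 in the controls (-0.64, adjusted p = 0.587). Just before its start, the region named for the neighbouring long non-coding RNA gene Cahm (chr17:10319572-10320349) overlaps the first 40 bases of the Qk window printed above. The region does not reach the Qk start itself. It had 55.4 and 44.6 in Fgf13cko and 102 and 90.2 in the controls, both Fgf13cko values lower. It fell with a log2 fold change of -0.95 (SE 0.24, adjusted p = 0.0482), the only one of the 20 regions under other names that did. The call ended in the DESeq2 Wald test (adjusted p = 0.166). It also ended without control replicate 1 or 2, where the log2 fold changes were -0.85 and -1.04. The region's log2 fold change was 0.0088 with library size, mitochondrial tags included, as the only scaling. Position alone does not tell whether the region belongs to Qk or to Cahm. Of the glial lists, 1 of 6 tested astrocyte promoters fell, Apoe, a lipid carrier (-0.89, adjusted p = 0.0450), and 1 of 5 of the oligodendrocyte lineage, Gpr17, a receptor of its precursors (-1.09, adjusted p = 0.0412), and 0 rose in either, against 2.14% rising and 0.601% falling over all promoter sums. Both calls ended without control replicate 1 or 2, where no promoter sum of any gene was called. The astrocyte promoters summed to 668 and 601 in Fgf13cko and 579 and 648 in the controls. Those of the oligodendrocyte lineage summed to 719 and 630 in Fgf13cko and 619 and 685 in the controls. Log2 fold changes were positive in 4 of the 6 astrocyte promoters (median 0.14) and in 3 of the 5 of the oligodendrocyte lineage (median 0.0056). Of these 5, Olig2 was higher (0.56, adjusted p = 0.0845) and Gpr17 lower at an unadjusted p under 0.05. Gfap, Aqp4, Sox10, Cspg4, Mbp and Mog had no promoter sum. Among distal sums, 1 of 4 astrocyte genes fell and 0 rose: Gfap, the astrocyte filament gene, had 132 and 141 in Fgf13cko and 296 and 322 in the controls (-1.18, adjusted p = 0.00629). The median of the 4 was -0.32. Only Aldh1l1 had a positive value, 0.51 (adjusted p = 0.0968), with an unadjusted p under 0.05. Of 7 distal sums of the oligodendrocyte lineage, 0 were called, with 2 higher and 1 lower at an unadjusted p under 0.05. Over all distal sums, 7.17% rose and 3.67% fell. The part of glial cells in the Qk result was not tested. Of the microglia, endothelial and pericyte, meningeal fibroblast and ependymal and choroid plexus lists, 1, 3, 3 and 3 promoter sums were tested, and 0 rose or fell in edgeR, also at an unadjusted p under 0.05. Of their 2, 5, 3 and 4 distal sums, 1 fell, that of Lmx1a, a choroid plexus regulator (-0.89, adjusted p = 0.0388), and 0 rose. At an unadjusted p under 0.05, the distal sums of Csf1r (0.90) and Tek (1.34) were higher. Those of Cdh5 (-0.73), Foxj1 (-0.57) and Lmx1a were lower.

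Among other RNA-binding protein genes, 1 promoter sum passed. Of 48 listed genes with roles in splicing, translation or mRNA decay, 40 had a tested promoter sum, 0 rose and 1 fell, with 20 log2 fold changes on each side of 0 and a median of -0.00053. Over all promoter sums, 2.14% rose and 0.601% fell. At an unadjusted p under 0.05, 4 of the 40 were higher and 5 lower, against 11.8% and 8.01% of all promoter sums. The one that fell was Zfp36, which encodes tristetraprolin, a protein that binds AU-rich elements and promotes mRNA decay. Its promoter sum was 41.8 and 62.6 in Fgf13cko and 112 and 100.3 in the controls (-1.03, SE 0.24, adjusted p = 0.0423). This call ended without control replicate 1 (adjusted p = 0.601) or 2 (0.490) in the DESeq2 Wald test (0.199) and with promoters as the table annotates them (0.0772), and 5 and 9 of the 40 were called without Fgf13cko replicate 1 and 2. Mbnl2, a splicing factor of maturing neurons, came next without passing, at 608 and 504 in Fgf13cko and 391 and 363 in the controls (0.56, adjusted p = 0.0633, and 0.0156 with a loess offset). Celf5, Srrm3, Mbnl3, Igf2bp1, Igf2bp2, Lin28a, Lin28b and Dazap1 had no promoter sum. Of the 22 genes with a tested distal sum, 1 rose and 0 fell: Nova2, a neuronal splicing factor, averaged 121 ± 10.5 in Fgf13cko and 66.4 ± 11.5 in the controls (SD, n = 2 each, log2 fold change 0.87, adjusted p = 0.0466). Over all distal sums 7.17% rose and 3.67% fell. The Nova2 call ended without control replicate 1 (adjusted p = 0.507) or 2 (0.187), in the DESeq2 Wald test (0.118), when scaled by library size alone (0.0780) and with a mean of at least 50 counts (0.0549).

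The deposited peak lists cover regions open in 1 group alone, which the count table leaves out. Within the 10 genes, the lists held 113 and 95 peaks in the Fgf13cko libraries and 65 and 86 in the controls. All peaks of the libraries numbered 64954 and 54373 in Fgf13cko and 38006 and 47148 in the controls, so the lists of the Fgf13cko libraries were longer throughout the genome. Of the 113 peaks of Fgf13cko replicate 1, 16 were shared with replicate 2 and absent from both controls, or 14.2%, against 15.4% of all its peaks. Of the 65 peaks of control replicate 1, 5 were shared with replicate 2 and absent from both Fgf13cko libraries, or 7.69%, against 3.89% of all its peaks. The share of Fgf13cko-only peaks in these genes was thus near that of the genome.

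The 16 Fgf13cko-only peaks fell in 4 genes, with 6 in Msi2, 4 each in Rbfox1 and Rbfox3 and 2 in Elavl4. Some were weak by their −log10 q in Fgf13cko replicate 1. It was 1.66 and 1.42 in Elavl4 and 1.87, 3.07, 1.34 and 1.75 in Rbfox3. In Msi2 it ran from 1.78 to 6.96 and in Rbfox1 from 3.15 to 8.97. Rbfox3 held 12 and 9 peaks in Fgf13cko and 4 and 3 in the controls. Elavl4 held 7 and 6 in Fgf13cko and 3 and 4 in the controls, and Rbfox1 24 and 20 in Fgf13cko and 10 and 16 in the controls. In these 3 genes both Fgf13cko libraries had more peaks than both controls. The whole lists are separated in the same way, at 64954 and 54373 peaks in Fgf13cko and 38006 and 47148 in the controls. Whether these genes go beyond that difference in list length was not tested. The strongest Fgf13cko-only peak by the authors' own fold enrichment was in Rbfox1 (chr16:6716246-6716556), at 6.57. In Msi2, the numbers overlapped between groups, at 41 and 32 in Fgf13cko and 25 and 32 in the controls. The 5 control-only peaks were 2 in Qk, 2 in Rbfox1 and 1 in Msi2, and Qk held 4 and 6 peaks in Fgf13cko and 4 and 8 in the controls.

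**Figure D4:**
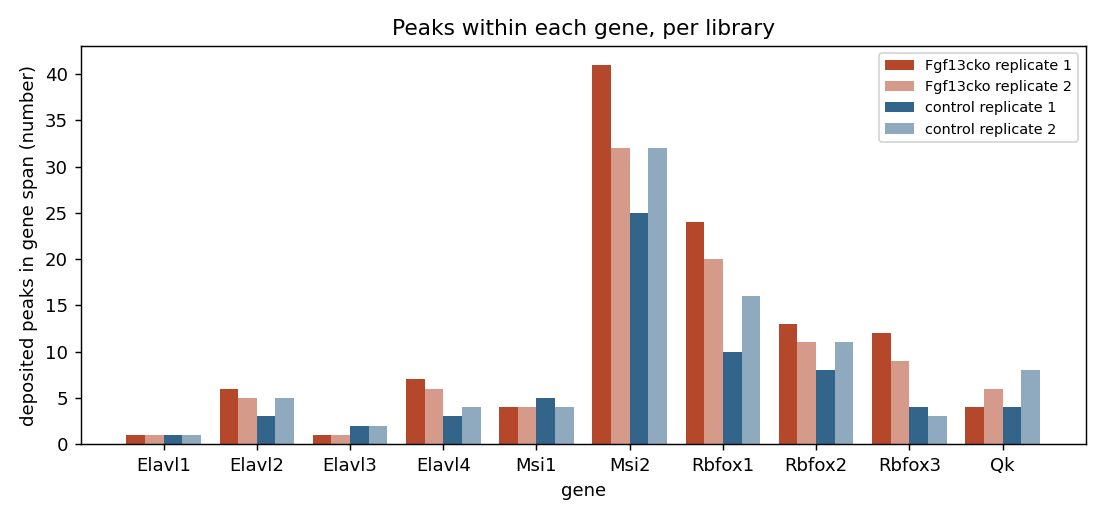
Number of deposited peaks within each gene in each library, with the Fgf13cko libraries in orange and the controls in blue. Rbfox3 has 12 and 9 peaks in Fgf13cko and 4 and 3 in control, and Elavl1 has 1 in every library.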

How the data were processed

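ATAC-seq libraries of 2 Fgf13cko and 2 control neurosphere cultures were compared, grouped by their titles. Per the file headers, the authors deposited estimated counts, raw HOMER tag counts per merged region on the mm10 build with no scaling. Bowtie2, Picard, MACS2 and DESeq2 are further tools in the submitters' processing notes, which give them no role. How reads were shifted for the transposase and how duplicates were treated is not given in the sources used. Of the counts, 50.2% were whole and the rest ended in 0.5, and they were rounded to whole numbers. In the deposited peak lists, each peak's score, fold enrichment (a ratio) and −log10 p and q are the authors' own values.

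A two-sided quasi-likelihood test (robust glmQLFit, then glmQLFTest) was run over all regions with edgeR 4.0.16, under R 4.3.3, after TMM scaling and filterByExpr. No covariates were used, and p-values were adjusted by Benjamini-Hochberg with a threshold of 0.05. The 2 mitochondrial regions and the 9 regions with no gene name entered the region fit only. Counts were also summed per gene over promoter regions, which overlap 1 kb on either side of the nearest start site, and over other regions within 100 kb of it. These gave 11306 and 7675 tested genes. The SE is the log2 fold change divided by the root of F. Across regions the common biological coefficient of variation came to 0.191. The fits were tested on simulated data. Alternatives used DESeq2 1.42.0, limma 3.58.1 for the loess offset, other scalings and filters, and each library left out. A peak counted for a group when both its libraries held an overlapping one by any base and neither library of the other group did.

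The replicate numbers do not mark a shared animal, litter or day in the labels, and deviations of same-numbered libraries correlated at -0.228, so libraries were not paired. The genes, the lists and the tests were chosen with earlier results of these data known. All 26 regions are described. Of the other RNA-binding protein genes, those past the threshold or with the smallest p are named.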

Additional observations from a re-analysis of the deposited data

How the results depend on the processing

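Of the values of single regions and gene sums under alternatives, 496 in all, 405 kept their direction and side of the threshold, 36 kept the direction and lost the threshold, 24 gained it and 31 turned sign; the cause was not tested. Library size alone, as a scaling of regions, counts the mitochondrial tags. With it, the 26 regions gave 12 higher and 1 lower, and the 20 regions under other names 9 higher and 0 lower. The log2 fold change then turned to 0.70 at Rbfox2 +108, 0.56 at Rbfox2 +25488, 0.93 at Rbfox2 -29629, 0.87 at Elavl2 +1403, 0.81 at Elavl2 +313, 0.38 at Elavl2 -92, 0.56 at Elavl3, 0.15, 0.37 and 0.45 at Msi1 +7079, -31099 and +1743, 0.88 at Msi2 +1842, 0.89 at Rbfox1 +10171, 0.42 at Rbfox3 and 0.35 at Qk. It also turned to 0.58 and 0.49 at the starts of Elavl1 and Msi2 and to 0.0088 beside that of Qk. With a loess offset it was 0.054 at Rbfox2 -29629, 0.066 at Rbfox1 +10171 and 0.0033 at Msi2 +1842, 2 of the other RNA-binding protein promoters were called and 2 regions under other names fell. With DESeq2 the counts were 1 of the 26 regions higher, 0 of the other RNA-binding protein promoters and 0 fallen under other names. With a mean of at least 50 counts, 2 of those promoters were called. With the table's own promoter annotation, 0 of them and 0 of the 10 genes were called, and the Rbfox2 promoter sum was 1.30. With a distal reach of 20 kb, the Rbfox1 distal sum was -0.0062.

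With each library left out in turn, the 26 regions gave 0 to 5 higher and 0 to 6 lower, promoter sums of the 10 genes 0 to 2 calls, distal sums 0 to 3, the other RNA-binding protein promoters 0 to 9, and regions under other names 0 to 9 higher and 0 to 7 lower. The log2 fold change ranged from -0.38 to 0.16 at Elavl2 +1403, from -0.65 to 0.23 at Elavl2 +313, from -0.36 to 0.79 at Elavl2 +239584, from -0.15 to 0.093 at Rbfox2 -29629, from -0.21 to 0.030 at Rbfox1 +10171, from -0.053 to 0.36 for the Rbfox2 promoter sum and from -0.57 to 0.17 for the Elavl2 distal sum. Where a group was left with 1 library, it was assumed to vary like the other group.

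With the replicate number as a block (replicate block), the counts for the 10 genes were 2 regions higher, 2 lower, 1 promoter sum and 2 distal sums, as without it, while of the regions under other names 3 rose in place of 4 and 2 fell in place of 1. With the mitochondrial regions left out, the 26 regions again gave 2 higher and 2 lower, and the regions under other names 3 higher and 1 lower. Same-numbered libraries share only a number. Peaks in 1 group alone numbered 15 in Fgf13cko and 4 in control at a −log10 q of at least 2, and 14 and 6 with an overlap of 0.5 of the shorter peak. The 15 are not all among the 16 counted without that limit. Several of the 16 lie under it, both Elavl4 peaks among them, so the like numbers do not mean the same peaks. With 2 libraries a group and few tags in most of these regions, differences that miss the threshold are not shown to be absent.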
